A study of Homo sapiens with 4 samples.

Results

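The genes analysed here encode the mitochondrial ribosomal proteins, the MRPL and MRPS genes. Members were all protein-coding entries of the deposited gene table whose symbol begins with MRPL or MRPS followed by a digit. The rule found 78 of 20372 entries, and 75 of the 78 had enough counts to be tested. TPC1, an established human papillary thyroid carcinoma line that carries a CCDC6-RET rearrangement, had been treated with the RET inhibitor BLU6864 for 6 h or for 24 h, with 2 libraries at each time. All 4 libraries thus came from treated cells, and vehicle libraries were not analysed here. The labels give a dose of 100 µM and the methods of the study 100 nM. The 24 h samples are marked as a re-analysis and the 6 h samples are not. Whatever this mark stands for cannot be told apart from time. TPC1 is 1 cell line in culture, and nothing in the labels says that the libraries of a time came from separate cultures, so P values measure only the spread between these libraries.

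Mitochondria carry their own ribosome, which translates the few proteins encoded in mitochondrial DNA, all of them subunits of the respiratory chain and ATP synthase. Its ribosomal RNAs are made inside the organelle, whereas every one of its proteins is encoded in the nucleus and imported. The MRPL genes encode mostly proteins of the large subunit, which joins amino acids, and the MRPS genes mostly proteins of the small subunit, which reads the messenger RNA. Part of these proteins descend from bacterial ribosomal proteins, and the others were added in the mitochondrial lineage. Inherited variants in several of these genes impair oxidative phosphorylation.

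Libraries held between 23917056 and 27457040 counts, and 12876 genes were tested. The Spearman correlation was at least 0.998 within a time and at most 0.941 between times. The thyroid transcription factor gene PAX8 had between 19124 and 22978 counts per library, and FOXE1, another, rose from 273 and 279 to 462 and 556 (log2 fold change = 0.84). TG, which encodes thyroglobulin, fell from 186 and 245 to 98 and 111 (log2 fold change = -1.09). TSHR and NKX2-1 were listed at 0 in every library, and SLC5A5 had at most 7 counts. Of 6 epithelial genes, KRT8 and KRT18 had at least 856 counts, KRT7 rose from 187 and 267 to 420 and 415, KRT19 fell from 100 and 125 to 37 and 40, and CDH1 and EPCAM had at most 8 and 11 counts. Of 8 leukocyte genes, CD14 rose from 47 and 41 raw counts to 85 and 91, and the other 7 had at most 19 in any library. Of 5 fibroblast genes, COL1A2 and DCN had at most 1 count, COL1A1 fell from 218 and 237 to 63 and 95, and LUM rose from 39 and 40 to 71 and 66. All 12 proliferation genes examined were lower at 24 h (median = -4.19 on the log2 scale), and their part in the changes below was not tested. In a bulk library, fewer cells of a state and less RNA per cell cannot be told apart.

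Between 6 h and 24 h, mitochondrial ribosomal protein genes moved in both directions, and most by little. Of the 75 tested, 19 rose and 23 fell with an adjusted P under 0.05, and 33 did not pass. These were 25.3% and 30.7% of the members, beside 33% and 32.6% of all genes tested. The study's cutoffs, which ask for a log2 fold change beyond 0.5 in either direction and P under 0.01 before adjustment, were passed by 4 members that rose and 9 that fell, which is 5.33% and 12% of them, beside 17.4% and 17.7% of all genes. The median absolute log2 fold change was 0.192, compared with 0.374 over all genes tested, and 62 of the 75 lay within 0.5 of no change. Only MRPS24 and MRPL38 exceeded 1 in size, which is 2.67% of the members and 15.8% of all genes. The 2 times did not overlap for 23 members that were higher and 33 that were lower at 24 h, while 41% and 40.8% of all genes were separated in these directions. The median log2 fold change was -0.07, beside 0.00 for all genes. It stayed below 0 with every scaling tried and turned to 0.049 when the trend with GC content and transcript length was removed. Without 6 h replicate 2 it was -0.018, and without 24 h replicate 2 it was -0.041.

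**Figure D1:**
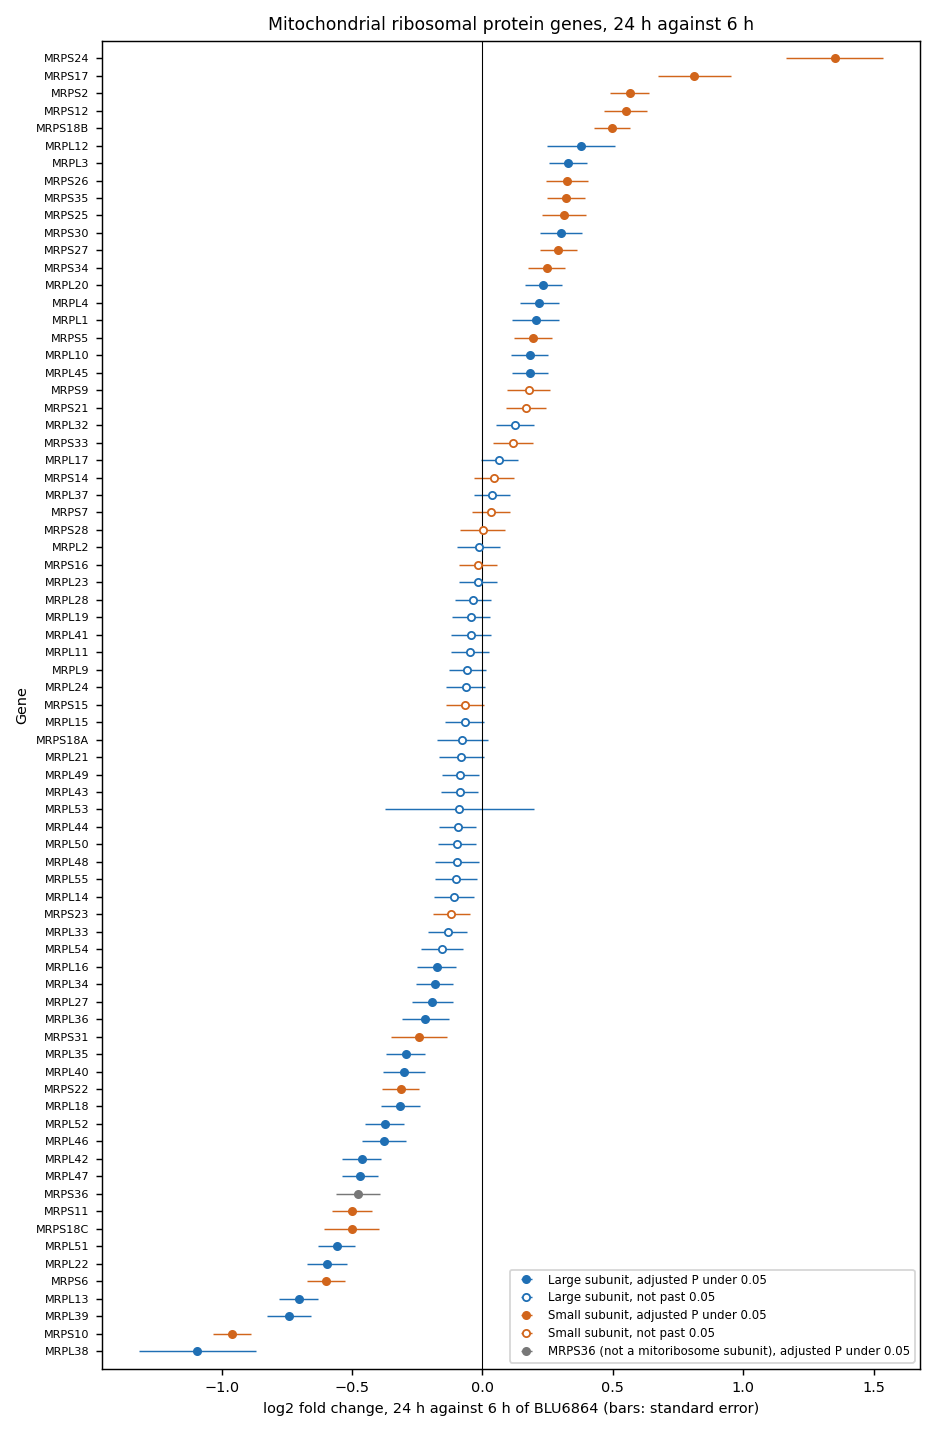
Points give the log2 fold change of each of the 75 genes tested at 24 h against 6 h, with standard errors as bars, for large subunit genes in blue, small subunit genes in orange and MRPS36 in gray. Filled points passed an adjusted P of 0.05, and values run from -1.09 for MRPL38 to 1.35 for MRPS24.

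The sum of all members took 0.412% and 0.404% of the counts of the 24 h libraries and 0.432% and 0.457% of those of the 6 h libraries. Both 24 h shares were thus lower (exact permutation test, two-sided, P = 0.33, the smallest that 2 against 2 libraries can give). Large subunit genes took 0.258% and 0.252% at 24 h and 0.279% and 0.298% at 6 h. Small subunit genes took 0.152% and 0.150% at 24 h, overlapping the 0.150% and 0.155% at 6 h.

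Large and small subunit genes are given side by side because the 2 subunits assemble separately, and the difference between them was not tested. Among 48 large subunit genes, 8 rose and 16 fell (16.7% and 33.3%), and the median was -0.09 on the log2 scale. Among 26 small subunit genes, 11 rose and 6 fell (42.3% and 23.1%), with a median of 0.14. Of all genes tested, 33% rose and 32.6% fell. Without the members that overlap another entry of the table, 3 small subunit genes rose and 3 fell. All 4 members that rose past the study's cutoffs encode small subunit proteins, and those that fell were 5 large and 4 small subunit genes. With DESeq2 in place of edgeR, 3 large subunit genes rose, and with any 1 of the 4 libraries left out 4 or 5 rose. Without 6 h replicate 1 the median was -0.15 for large and 0.043 for small subunit genes, and without 6 h replicate 2 it was -0.036 for large subunit genes. Members with a bacterial counterpart, 45 in number, included 11 that rose and 13 that fell, with a median of -0.04. A further 29 were classed as specific to mitochondria, among them MRPS18A and MRPS18B, which descend from a bacterial gene as given below. Of these 29, 8 rose and 9 fell, with a median of -0.09. The remaining gene, MRPS36, is described below.

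The largest falls among small subunit genes were in MRPS10, MRPS6 and MRPS18C. MRPS10 encodes the counterpart of a bacterial protein of the small subunit head, and its normalized counts were 3134 and 3262 at 6 h and 1699 and 1590 at 24 h. Both 24 h libraries lay far below both 6 h libraries, with little spread within a time (log2 fold change = -0.96 ± 0.07 (SE), adjusted P = 5.22e-12). MRPS6, on chromosome 21, had 2116 and 1951 normalized counts at 6 h and 1317 and 1365 at 24 h. Its libraries did not overlap between times (log2 fold change = -0.60 ± 0.07 (SE), adjusted P = 4.90e-08). MRPS18C had 377 in each 6 h library and 256 and 276 at 24 h (log2 fold change = -0.50 ± 0.11 (SE), adjusted P = 1.75e-04). MRPS11 passed the study's cutoffs as well, with a log2 fold change of -0.50.

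Of the large subunit genes, MRPL38 fell most, but from few reads. Its raw counts were 67 and 101 at 6 h and 34 and 47 at 24 h (log2 fold change = -1.09 ± 0.22 (SE), adjusted P = 1.25e-04). MRPL38 had the lowest level per kb of the 73 tested members with a known transcript length. MRPL39 had 993 and 1054 normalized counts at 6 h and 639 and 587 at 24 h (log2 fold change = -0.74 ± 0.08 (SE), adjusted P = 1.51e-08). The proteins of both genes have no bacterial counterpart. MRPL13 is among the more abundant members, with 3826 and 4361 normalized counts at 6 h and 2460 and 2564 at 24 h (log2 fold change = -0.70 ± 0.08 (SE), adjusted P = 5.83e-09). MRPL22, whose bacterial counterpart lines the tunnel through which the new protein leaves, had 1274 and 1346 at 6 h and 843 and 889 at 24 h (log2 fold change = -0.60 ± 0.08 (SE), adjusted P = 1.50e-07). MRPL51 had the highest level per kb of the 73 tested members with a known transcript length. It had 4265 and 4566 normalized counts at 6 h and 2991 and 3007 at 24 h (log2 fold change = -0.56 ± 0.07 (SE), adjusted P = 1.38e-07). In each of these 5 genes the lowest 6 h library lay above the highest 24 h library, a condition by which the largest falls were chosen. This held for 40.8% of all genes tested.

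**Figure D2:**
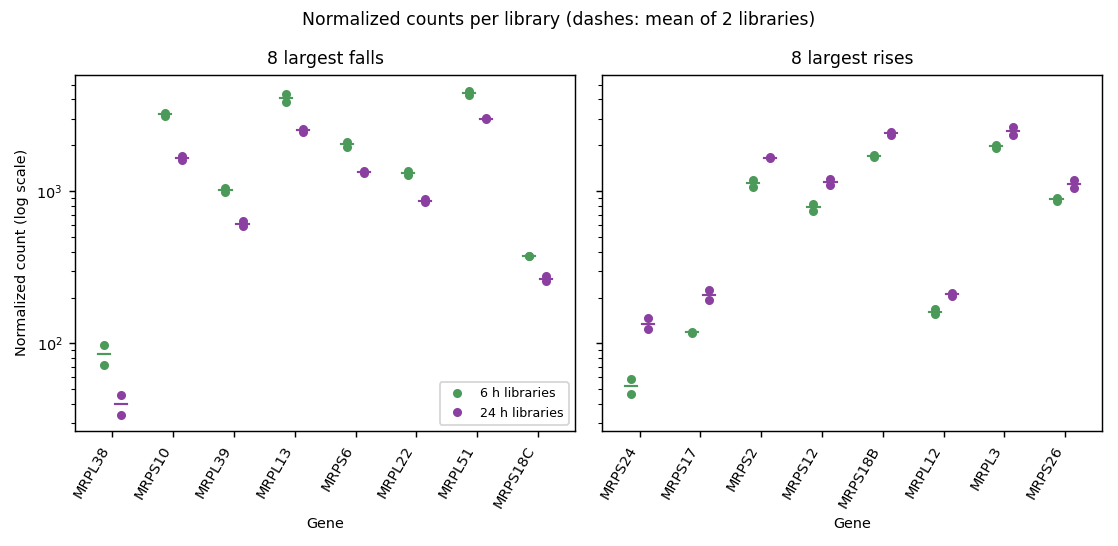
Points give normalized counts per library on a log scale for the 8 members with the largest falls (left) and the 8 with the largest rises (right), in green for 6 h and purple for 24 h, with dashes for the mean of 2 libraries. The libraries of the 2 times did not overlap in any of these genes, a condition by which they were chosen.

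Of the rises, that of MRPS24 was the largest. This gene encodes the counterpart of a bacterial protein at the entry of the messenger RNA channel, and its raw counts were 43 and 61 at 6 h and 124 and 150 at 24 h. Even the lower 24 h library lay well above the higher 6 h library (log2 fold change = 1.35 ± 0.19 (SE), adjusted P = 4.62e-07). MRPS17 also had few reads, with 110 and 122 raw counts at 6 h and 192 and 229 at 24 h (log2 fold change = 0.81 ± 0.14 (SE), adjusted P = 1.50e-05). MRPS2 had 1187 and 1062 normalized counts at 6 h and 1644 and 1681 at 24 h (log2 fold change = 0.56 ± 0.07 (SE), adjusted P = 2.25e-07). MRPS12, whose bacterial counterpart lies at the decoding center, had 741 and 827 normalized counts at 6 h and 1102 and 1194 at 24 h. Both 24 h values were above both 6 h values (log2 fold change = 0.55 ± 0.08 (SE), adjusted P = 1.72e-06). MRPS26, specific to mitochondria, rose by less, from 866 and 905 to 1178 and 1043 (log2 fold change = 0.33 ± 0.08 (SE), adjusted P = 9.68e-04).

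MRPS18A, MRPS18B and MRPS18C descend from 1 bacterial gene and encode proteins at different positions, that of MRPS18A in the large subunit. MRPS18B had 1716 and 1679 normalized counts at 6 h and 2437 and 2355 at 24 h (log2 fold change = 0.50 ± 0.07 (SE), adjusted P = 6.50e-07), while MRPS18C fell as given above. MRPS18A had 431 and 427 at 6 h and 417 and 396 at 24 h (log2 fold change = -0.08 ± 0.10 (SE), adjusted P = 0.498). The 3 paralogs thus included 1 rise, 1 fall and 1 gene that did not pass.

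MRPL12 builds the flexible stalk of the large subunit that contacts translation factors, and MRPL10 and MRPL11 form the base of the stalk. MRPL12 had 155 and 167 normalized counts at 6 h and 205 and 214 at 24 h (log2 fold change = 0.38 ± 0.13 (SE), adjusted P = 0.0128). For MRPL10 the counts were 1627 and 1567 at 6 h and 1857 and 1764 at 24 h (log2 fold change = 0.18 ± 0.07 (SE), adjusted P = 0.0265). MRPL11 overlapped between times, with 1390 and 1479 at 6 h and 1364 and 1415 at 24 h (log2 fold change = -0.05 ± 0.07 (SE), adjusted P = 0.580). With DESeq2 neither MRPL12 nor MRPL10 passed, with adjusted P values of 0.0888 and 0.0843, and with library size alone MRPL10 did not pass (adjusted P = 0.0902). Over the 4 fits that each left out a library, MRPL12 did not pass without 24 h replicate 2 or 6 h replicate 1, and MRPL10 did not pass without 24 h replicate 1 or 6 h replicate 2. The adjusted P values were 0.0539 and 0.0830 for MRPL12 and 0.129 and 0.148 for MRPL10.

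Other members known from inherited mitochondrial disease did not share a direction. MRPL3, whose bacterial counterpart reaches toward the peptidyl transferase center, rose from 1932 and 2022 normalized counts to 2629 and 2341 (log2 fold change = 0.33 ± 0.07 (SE), adjusted P = 3.35e-04). MRPS22, specific to mitochondria, fell from 2093 and 2017 to 1631 and 1675 (log2 fold change = -0.31 ± 0.07 (SE), adjusted P = 3.17e-04). Values for MRPL44, MRPS16, MRPS7 and MRPS14 were near no change, with log2 fold changes of -0.10, -0.02, 0.03 and 0.05 and adjusted P values between 0.239 and 0.858. MRPS5, whose bacterial counterpart takes part in keeping translation accurate, had 1230 and 1146 at 6 h and 1380 and 1339 at 24 h (log2 fold change = 0.20 ± 0.07 (SE), adjusted P = 0.0220). This call was lost with DESeq2 (adjusted P = 0.0848), with library size alone (adjusted P = 0.0733), and without 24 h replicate 1 or 6 h replicate 2 (adjusted P = 0.0796 and 0.188).

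MRPS27, which carries pentatricopeptide repeats typical of RNA-binding proteins of the organelle, and MRPS30, which despite its symbol sits in the large subunit, rose with log2 fold changes of 0.29 ± 0.07 (SE) and 0.30 ± 0.08 (SE). For MRPL41 the log2 fold change was -0.04 ± 0.08 (SE), with overlapping libraries. MRPS28 was the member nearest to no change, with 695 and 673 normalized counts at 6 h and 706 and 663 at 24 h. MRPS36 is now known as KGD4, a subunit of the 2-oxoglutarate dehydrogenase complex of the citric acid cycle and not of the ribosome. It fell from 820 and 837 normalized counts to 568 and 622 (log2 fold change = -0.48 ± 0.09 (SE), adjusted P = 2.24e-05).

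Levels per kb of canonical transcript (GENCODE v44) were compared for the 73 tested members with a length. MRPS21 and MRPL45 had none and are not ranked. The highest were MRPL51 with 4128, MRPL33 with 3799 and MRPL15 with 2856 normalized counts per kb as means of the 4 libraries. The lowest were MRPL38 with 45.8, MRPL53 with 65.8 and MRPS17 with 91.0. Neither MRPL33 nor MRPL15 passed the test, with log2 fold changes of -0.13 ± 0.08 (SE) and -0.07 ± 0.07 (SE). MRPL53 had between 25 and 39 raw counts, and the estimate was imprecise (log2 fold change = -0.09 ± 0.29 (SE)).

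The members with the fewest counts overlapped other gene annotations, and so did MRPL51 and MRPL33, the highest per kb. MRPL42 overlapped none and was low only per kb, at 114, over a canonical transcript of 15557 bases. Its normalized counts were 1930 and 2181 at 6 h and 1434 and 1551 at 24 h. Of the members tested, 34 overlapped another entry of the table (45.3%, beside 35.3% of all genes tested), and these included each of the 5 with a mean normalized count under 300 per library, MRPL38, MRPL53, MRPS17, MRPS24 and MRPL12. How reads were counted, and whether strand was used, is not given in the sources used here, so reads of overlapping genes cannot be assigned with certainty. MRPS24 lies within the readthrough entry URGCP-MRPS24, which was at 0 in every library. The entry of the proteasome gene PSMA2 that overlaps MRPL32 was likewise listed at 0 in all 4 libraries. Any other entry of that symbol was not examined, so this is not a level of the gene. Among the 41 members without overlap, 9 rose and 14 fell, with a median log2 fold change of -0.08. Of these 41, none rose and 4 fell past the study's cutoffs. The 4 that rose past the cutoffs among all members, MRPS24, MRPS17, MRPS2 and MRPS12, each overlapped another entry.

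**Figure D3:**
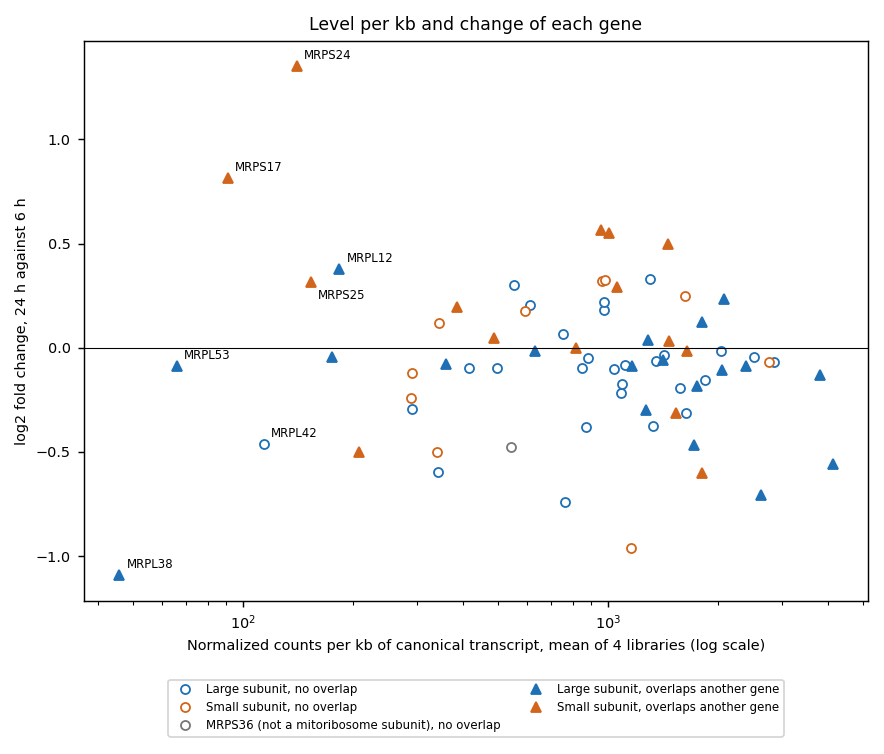
Each point is a member, with its mean normalized count per kb of transcript on a log scale and its log2 fold change at 24 h against 6 h. Filled triangles overlap another gene of the table and open circles do not, and MRPS24, MRPS17 and MRPL38 combine low levels with large changes.

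The remaining 3 entries were too low to test. The 2 entries of MRPL30 had raw counts of 0 and 0 at 6 h with 1 and 5 at 24 h, and of 0 and 0 at 6 h with 0 and 1 at 24 h. A second entry of MRPS17 had 5 and 3 at 6 h and 1 and 1 at 24 h. All 3 overlap another entry of the same symbol.

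Promoter sequences were compared because members moved in both directions. RefSeq windows from 250 bases before to 50 bases after the start (GRCh38.p14) matched 64 of the 75 members tested. The letters of an ETS family site, CCGGAAG, were found on either strand in 42.2% of member promoters and 19.5% of the 10303 promoters of genes tested. The YY1 letters AAGATGGCG were present in 20.3% and 4.28%. Shares were 9.38% and 12.2% for the NRF1 motif, 6.25% and 10.0% for the E-box CACGTG, and 29.7% and 36.7% for CCAAT. Sites of different motifs may share bases. ETS letters were in 5 of 17 promoters of members that rose, 12 of 20 of those that fell and 10 of 27 of the others. For YY1 these numbers were 3 of 17, 7 of 20 and 3 of 27. A match is a run of letters and not a measured site, and no difference between these groups was tested.

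The 5 sequences below, each from 120 bases before to 30 bases after the start, are those of members with large changes or a shared promoter region, written 5′ to 3′ on the strand of the gene, with any of the 5 motifs in capitals. MRPS10 (chr6:42217832-42217981, minus strand) fell and holds ETS and YY1 letters, and MRPL51 (chr12:6493233-6493382, minus strand) fell and holds ETS letters in both orientations. MRPL46 (chr15:88467359-88467508, minus strand) and MRPS11 (chr15:88467588-88467737, plus strand) both fell and face away from each other, and MRPS12 (chr19:38930824-38930973, plus strand) rose.
MRPS10: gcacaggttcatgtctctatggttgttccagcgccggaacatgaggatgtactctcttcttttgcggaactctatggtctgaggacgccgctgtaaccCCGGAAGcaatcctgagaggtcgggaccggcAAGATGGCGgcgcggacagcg
MRPL51: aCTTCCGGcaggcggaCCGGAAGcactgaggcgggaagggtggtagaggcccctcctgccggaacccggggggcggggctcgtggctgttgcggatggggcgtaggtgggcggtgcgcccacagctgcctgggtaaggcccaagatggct
MRPL46: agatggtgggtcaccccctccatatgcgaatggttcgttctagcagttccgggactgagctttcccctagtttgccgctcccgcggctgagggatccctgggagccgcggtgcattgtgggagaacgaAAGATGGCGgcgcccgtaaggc
MRPS11: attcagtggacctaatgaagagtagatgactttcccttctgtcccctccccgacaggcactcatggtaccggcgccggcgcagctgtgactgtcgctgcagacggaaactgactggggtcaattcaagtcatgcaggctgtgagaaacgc
MRPS12: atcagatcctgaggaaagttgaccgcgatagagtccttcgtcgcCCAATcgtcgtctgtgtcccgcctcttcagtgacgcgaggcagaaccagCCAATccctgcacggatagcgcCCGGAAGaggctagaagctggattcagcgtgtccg
YY1 letters appear in MRPS10 and MRPL46 next to the start of transcription, MRPS12 holds CCAAT and ETS letters, and the window of MRPS11 holds none of the 5 motifs.

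Divergent neighbors, genes on the opposite strand that start within 1000 bp, were found for 24 members, which is 32.9% of those matched to GENCODE v44 and compares with 13.1% of all genes. The neighbor was tested for 23 of them. In 8 of the 23 pairs (34.8%) both genes fell, in none did both rise, and in 1 (4.35%) they moved in opposite directions. Over all 1554 genes with a tested divergent neighbor these shares were 19.4%, 9.07% and 14.5%, and whether the members differ from them was not tested. MRPL40 fell (log2 fold change = -0.30) while HIRA, which encodes a histone chaperone, rose (log2 fold change = 0.54). Over all genes with a tested neighbor, 49.8% of the 604 whose neighbor fell also fell. All 8 neighbors that fell lay beside a member that fell, but the fall of MRPL27 was lost with DESeq2, with upper quartile scaling, and without 24 h replicate 2 or 6 h replicate 2. Without 24 h replicate 2, 6 of 9 neighbors that fell lay beside a member that fell. Over the 23 pairs, which share their libraries and partly their reads, Spearman's rho between the 2 log2 fold changes was 0.60 and Pearson's r 0.35, compared with 0.23 and 0.18 over all genes with a tested neighbor. Without 6 h replicate 2, rho was 0.44.

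MRPS11 and MRPL46, a small and a large subunit gene, are each other's neighbor at 320 bp and, counted from each side, account for 2 of these 8. MRPL46 had 856 and 1064 raw counts at 6 h and 794 and 726 at 24 h (log2 fold change = -0.38 ± 0.08 (SE), adjusted P = 3.42e-04). MRPS11 had 1202 and 1469 at 6 h and 987 and 957 at 24 h (log2 fold change = -0.50 ± 0.08 (SE), adjusted P = 2.41e-06). Of the 23 tested neighbors, 3 fell more than 2-fold, and C10orf2 rose more than 2-fold. Of all genes tested, 15.8% changed by more than 2-fold in either direction, and whether the neighbors differ from this was not tested. The 3 that fell are a cell division, a DNA replication and a DNA repair gene. NCAPD2, a condensin gene, had 4043 and 4431 raw counts at 6 h and 990 and 1179 at 24 h (log2 fold change = -2.01) beside MRPL51. MTBP, which takes part in starting DNA replication, had 454 and 483 at 6 h and 123 and 115 at 24 h (log2 fold change = -2.02) beside MRPL13. EME1, part of a nuclease that resolves DNA junctions, fell from 149 and 172 to 9 and 6 (log2 fold change = -4.44) beside MRPL27, whose own log2 fold change was -0.19 ± 0.08 (SE). NCAPD2 and MTBP overlap their members in the table, and the part of shared reads in these falls was not tested. C10orf2, which encodes the mitochondrial DNA helicase Twinkle, rose from 134 and 148 to 546 and 529 (log2 fold change = 1.88) beside MRPL43, whose log2 fold change was -0.09 ± 0.07 (SE).

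**Figure D4:**
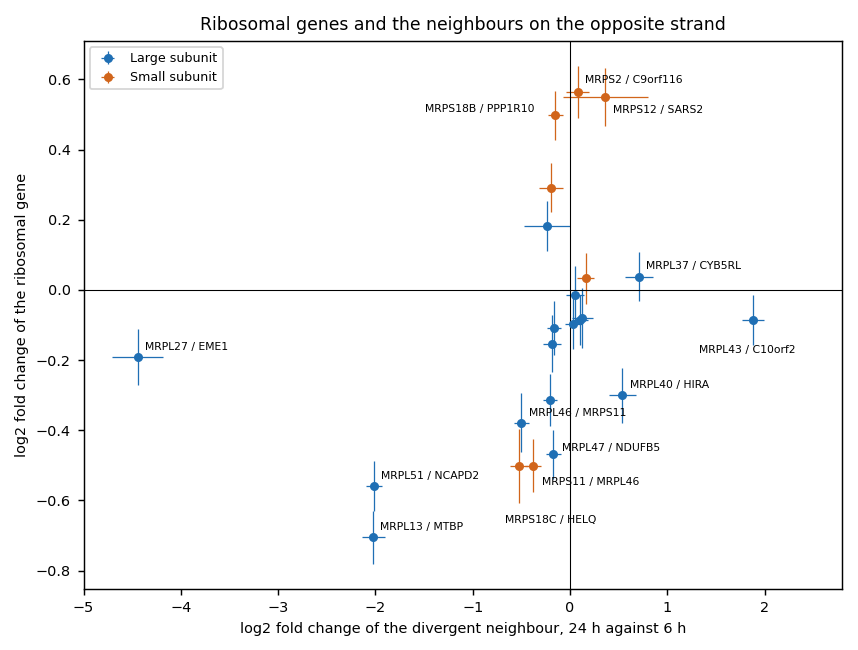
Each point is 1 of 23 pairs, with the log2 fold change of the neighbor on the horizontal axis, that of the ribosomal gene on the vertical axis, and standard errors as bars. In the 3 pairs with NCAPD2, MTBP and EME1 the neighbor fell by more than the ribosomal gene.

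The changes of members had a Spearman correlation of 0.28 with GC content of the transcript (n = 73 genes) and of 0.08 with its length, compared with 0.23 and 0.06 over all genes with both values. The points are genes of the same 4 libraries and share any bias of those libraries. Transcripts of members were short, with a median of 1224 bases beside 3352 for all genes.

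Proteins and factors that work with these members were examined as lists. Of all genes tested, 33% rose and 32.6% fell. In the lists, 0% and 42.9% did so of mitoribosomal genes with other symbols, and 37.5% and 20.8% of assembly genes. For translation factor genes these shares were 21.4% and 42.9%. Of 7 mitoribosomal genes with other symbols, none rose and 3 fell (median log2 fold change = -0.11), 1 of them without 24 h replicate 2. These were CHCHD1 (-0.42 ± 0.07 (SE)), ICT1 (-0.20 ± 0.08 (SE)) and DAP3 (-0.18 ± 0.07 (SE)). Of 24 genes for assembly of the ribosome, 9 rose and 5 fell (median = 0.06), with 2 falls without 24 h replicate 1 or without 6 h replicate 2. The ribosomal RNA methyltransferase gene MRM1 had 44 and 53 raw counts at 6 h and 109 and 113 at 24 h (log2 fold change = 1.15 ± 0.19 (SE)). DDX28, a helicase gene, rose from 169 and 174 to 351 and 346 (log2 fold change = 0.98 ± 0.12 (SE)), and RBFA, which encodes a maturation factor of the small subunit, rose from 221 and 226 to 453 and 421 (log2 fold change = 0.92 ± 0.11 (SE)). TRMT2B, an RNA methyltransferase gene, fell from 576 and 601 to 337 and 370 (log2 fold change = -0.78 ± 0.10 (SE)).

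Of 14 translation factor genes, 3 rose and 6 fell, with a median of -0.01, and without 24 h replicate 2 the number that fell was 2. GFM1, which encodes the elongation factor that moves the ribosome along the messenger, rose (log2 fold change = 0.53 ± 0.07 (SE)). GFM2, which encodes the related factor for ribosome recycling, fell (log2 fold change = -0.76 ± 0.08 (SE)), as did the release factor gene MTRF1L (log2 fold change = -0.55 ± 0.10 (SE)). Raw counts were 1352 and 1441 at 6 h and 2115 and 2042 at 24 h for GFM1, and 1174 and 1342 at 6 h and 804 and 724 at 24 h for GFM2. The 2 related genes thus moved apart.

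Of 17 genes for mitochondrial RNA and its regulators, 9 rose and 3 fell (52.9% and 17.6%), with a median of 0.39. MYC had 431 and 472 raw counts at 6 h and 2603 and 2722 at 24 h (log2 fold change = 2.51 ± 0.08 (SE)). PPRC1 and PPARGC1B, which encode coactivators of the PGC-1 family, rose with log2 fold changes of 2.12 ± 0.09 (SE) and 1.95 ± 0.26 (SE), the latter from 14 and 25 counts. PNPT1, for the RNA-degrading enzyme of the organelle, and POLRMT, for its RNA polymerase, rose by 0.67 and 0.51 on the log2 scale. GABPA, which encodes the DNA-binding part of an ETS family factor, fell (log2 fold change = -0.28 ± 0.09 (SE)). Its normalized counts were 1391 and 1055 at 6 h and 1018 and 999 at 24 h, so the 6 h libraries differed widely. GABPB1, in the same list, went the other way and rose (log2 fold change = 0.39 ± 0.09 (SE)). Values were -0.11 for TFAM, 0.07 for NRF1 and 0.09 for YY1, none of which passed.

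The 13 protein-coding genes of mitochondrial DNA, which the ribosome translates, included none that rose and 11 that fell (84.6%, median log2 fold change = -0.48). They took 1.65% and 2.43% of the counts at 6 h and 1.40% and 1.56% at 24 h, so 6 h replicate 2 stood above the other libraries. Without it 7 fell, and with DESeq2 4 fell. Nuclear genes of oxidative phosphorylation included 8 that rose and 41 that fell of 76 (10.5% and 53.9%, median = -0.18). Among those that fell were COX7A2 (-0.85 ± 0.08 (SE)) and COX6C (-0.81 ± 0.08 (SE)), both for cytochrome c oxidase subunits. Of 81 cytosolic ribosomal protein genes, 33 rose and 3 fell (40.7% and 3.70%, median = 0.15). That count of rises was 15 without 6 h replicate 1, 18 without 24 h replicate 2, 21 without 24 h replicate 1 and 57 without 6 h replicate 2.

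**Figure D5:**
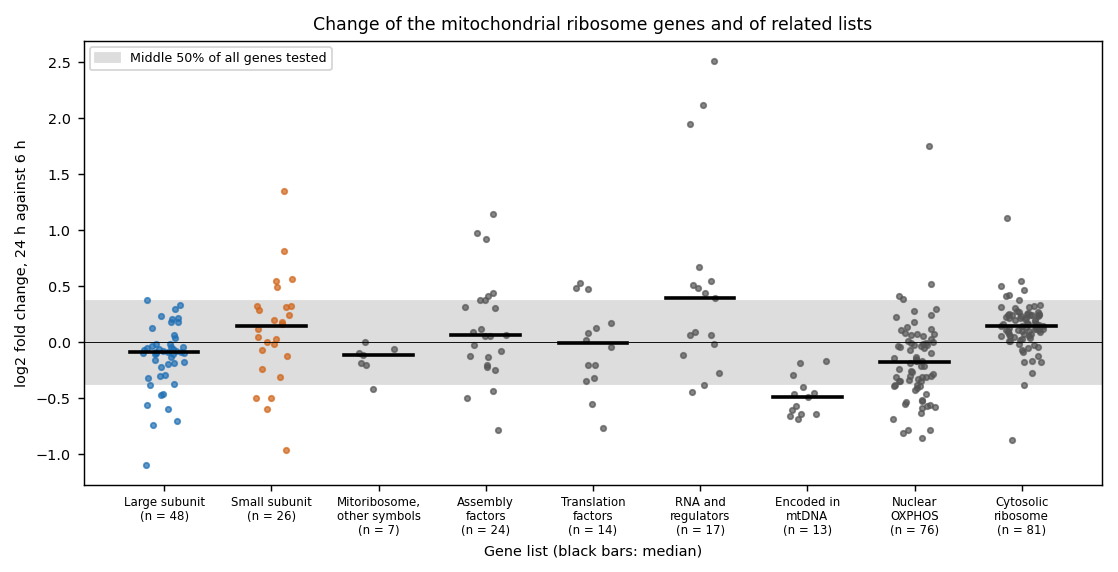
Points are genes tested, with their log2 fold change at 24 h against 6 h, by list, black bars are medians, and the gray band covers the middle 50% of all genes tested. Medians were -0.09 for the large subunit, 0.14 for the small subunit, -0.48 for genes of mitochondrial DNA and 0.39 for genes of mitochondrial RNA and its regulators.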

How the data were processed

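RNA of TPC1 cells was sequenced by the study with a TruSeq protocol. Per the labels, reads were 50 bp and single-end, aligned to hg19 with STAR 2.3 and compared with DESeq2, whereas the methods of the study give paired-end reads and another STAR version. The authors deposited raw counts per gene, which are analysed here, beside a normalized signal (counts divided by a size factor) and their own comparison, a log2 fold change with a score and P values, none of which was used. The counting program is not given in the sources used here.

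The raw counts were analysed in R 4.3.3 by edgeR 4.0.16 (filterByExpr, TMM, quasi-likelihood test, Benjamini-Hochberg adjustment over all 12876 genes tested). Standard errors derive from the F statistic. For normalized counts, each library was scaled to the mean of the 4 effective library sizes. The members, gene lists and rule for named genes were chosen with earlier results of these data known. Named members were the 8 largest rises and falls with separated libraries, the 3 highest and lowest per kb, the one nearest to no change, the MRPS18 paralogs and a set chosen for their roles, and of each related list up to 4 with the largest change past the study's cutoffs, beside TFAM, POLRMT, NRF1, GABPA, YY1 and MYC. MRPS11, MRPL46, MRPL27, MRPL40, MRPL42, MRPL43, NCAPD2, MTBP, EME1, HIRA, C10orf2 and PSMA2 were named after their values were seen. So were the members of lists that did not pass those cutoffs. Positions of overlap follow hg19 as in the table. Lengths, strand and neighbors follow GENCODE v44 by Ensembl identifier. The fit was tested on simulated data. Alternatives were DESeq2 1.42.0, library size, upper quartile scaling, other filters, a replicate block and each library left out. Removing the GC and length trend, members without overlap, and the alternatives for subunits, lists and pairs were added after seeing the data. With 2 libraries per time, outliers were not tested.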

Additional observations from a re-analysis of the deposited data

How the results depend on the processing

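No member past an adjusted P of 0.05 changed direction under DESeq2, another scaling or filter, the replicate block, or with a library left out. DESeq2 lost 11 of the 42 calls, and 31 calls (13 rises and 18 falls) were kept under every scaling, filter, test and block, 29 of them also with each library left out. Library size alone shifted the median over all genes to -0.04 on the log2 scale and upper quartile scaling to 0.03. Labels do not say what replicate numbers mark, and same-numbered libraries hardly deviated together (r = 0.08). With the replicate number as a block, 21 members rose and 24 fell, no call was lost and 3 were gained.

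Removing the GC and length trend moved the median of all members to 0.049 and that of the small subunit to 0.30. The 41 members without overlap gave 9 rises and 14 falls, with 10 falls in the large subunit. In the small subunit they gave 3 rises and 3 falls, beside 11 and 6 among all 26 small subunit genes. DESeq2 gave 3 rises of large subunit genes, and 3 falls of assembly factors, 4 of genes of mitochondrial DNA and 1 of cytosolic ribosomal genes. Library size alone gave 5 rises of large subunit genes, and upper quartile scaling 1 fall of mitoribosomal genes with other symbols. The cause was not tested.

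With each library left out in turn, rises of large subunit genes ranged from 4 to 5, and medians from -0.084 to -0.018 for all members, -0.15 to -0.036 for the large and 0.043 to 0.15 for the small subunit. Divergent pairs in which both genes fell ranged from 6 to 8, and from 6 to 9 under the other settings. Falls ranged from 1 to 2 for mitoribosomal genes with other symbols, 2 to 4 for assembly factors, 2 to 5 for translation factors and 7 to 13 for genes of mitochondrial DNA. Cytosolic ribosomal genes gave 15 to 57 rises and 0 to 5 falls.

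Some members near no change, none of them called, turned sign. The log2 fold change was -0.0027 for MRPS28 with DESeq2, -0.042 with library size alone and -0.00029 with the replicate block, -0.010 for MRPS7 with library size alone and 0.013 for MRPS16 with upper quartile scaling. With each library left out it ranged from -0.038 to 0.053 for MRPS28, -0.039 to 0.11 for MRPS7, -0.079 to 0.046 for MRPS16, -0.16 to 0.027 for MRPL15, -0.15 to 0.071 for MRPL41 and -0.45 to 0.22 for MRPL53, whose raw counts were at most 39.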
